A study of Homo sapiens with 9 samples.

Results

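Cell division in TC32 cells was read from 55 listed genes that encode mitotic kinases, cyclins, spindle and kinetochore proteins, condensin subunits and the transcription factors of this program. The genes were picked out by symbol and not by a cut-off on their values, but the list was drawn up with earlier results of these data known. Of the 60603 genes in the table, 54 carried a listed symbol, and all 54 passed the filter on low counts that left 16093 genes for testing. KIF23 was listed under another name (AC027237.1) and was matched by its identifier, ENSG00000137807, so it is described separately and enters none of the counts of genes except those of promoter windows.

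TC32 cells are a long-used line of Ewing sarcoma, a tumour of bone and soft tissue, and express the EWS::FLI1 fusion, an oncogenic transcription factor with an ETS family DNA-binding domain. Polyadenylated RNA was sequenced from 3 groups of 3 biological replicates, all labelled 30 h, wild type and batch 1, so every group shares the cell line, the time and the batch. The siEF cells received an siRNA spanning the fusion breakpoint, the siNEG cells a nonspecific siRNA, and the media cells were labelled as given no siRNA. A single line and a single siRNA against the fusion were used, and values describe whole cultures.

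Libraries held between 20727706 (siEF replicate 2) and 33134581 expected counts. Levels are given in CPM, which are counts scaled to a common library size after TMM normalisation, and log2 fold changes come from edgeR's quasi-likelihood test over all 9 libraries with Benjamini-Hochberg adjustment over the 16093 genes. FLI1, the 3' partner of the fusion, averaged 37.8 CPM over the siEF libraries (SD 2.002), next to 48.4 (SD 0.315) and 57.9 CPM (SD 1.65) over siNEG and media, 3 libraries each, with no overlap between siEF and either control. The paper checked the silencing by qPCR and reports a change of 3 cycles. How the FLI1 counts relate to that larger change was not tested. All 6 Ewing sarcoma markers examined (CD99, NKX2-2, NR0B1, STEAP1, PAX7 and LIPI) were detected in each library. Together they summed to 5156 to 7105 counts in siEF, 14049 to 15292 in siNEG and 15706 to 18355 in media. Against siNEG, 5 of the 6 were lower in siEF (edgeR adjusted P under 0.01, log2 fold change below -1), as were 11.7% of all genes tested. The other 1 was higher on adjusted P alone, and the median log2 fold change over the 6 was -2.46. Of 4 haematopoietic markers, CD3E was at 0 counts throughout, and the list summed to between 15 and 31 counts per library. The 3 endothelial markers summed to 50 to 72 counts in siEF and to 107 to 151 counts in the other libraries, with VWF at 3 counts or fewer throughout. The epithelial markers EPCAM and CDH1 summed to 25 to 41 counts in siEF, 0 to 3 in siNEG and 13 to 15 in media, with CDH1 at 0 in siNEG. The part of these markers in the results was not tested. In bulk RNA, fewer cells in division and less RNA per dividing cell cannot be told apart.

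A cell enters mitosis when CDK1 bound to a B-type cyclin is freed from inhibitory phosphates by CDC25 phosphatases, and the Aurora and Polo-like kinases then build the spindle. Kinetochores assembled on CENPA chromatin attach chromosomes to microtubules, and the spindle checkpoint keeps CDC20 from activating the anaphase-promoting complex until every kinetochore is attached. Transcripts of many of these genes, though not all, accumulate late in the cell cycle under the MuvB complex with B-MYB (MYBL2) and FOXM1. These factors act through the cell cycle genes homology region (CHR), often beside CCAAT boxes bound by NF-Y.

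Nearly the whole set was lower in the cells given the siRNA against the fusion. Against siNEG, 37 of the 54 genes were lower in siEF by both cut-offs (edgeR adjusted P under 0.01, log2 fold change below -1), a call made for 11.7% of all genes tested. None was called higher, where 17.1% of all genes were, and at an unadjusted P under 0.05 the number with a log2 fold change above 1 was also 0, as it was with DESeq2. On adjusted P alone, 53 of the 54 genes were lower and only 1, CDC25B, was higher, with backgrounds of 31.7% and 33.6%. The siEF and siNEG libraries did not overlap for any of the 54 genes. For 53 genes the siEF libraries were the lower ones, as for 37.1% of all genes, and for CDC25B they were the higher ones, as for 39.8%. The median log2 fold change over the 54 genes was -1.25, compared with 0.05 over all genes tested, of which 8.71% lay at or below the median of the mitotic genes.

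Summed over the 54 genes, mitotic transcripts took 4239, 4266 and 4134 CPM in siEF replicates 1, 2 and 3. The same sum was 8727, 8911 and 8676 CPM in siNEG and 8826, 9248 and 9239 CPM in media. The siEF sum averaged 4213 ± 69.4 CPM (SD, n = 3), or 48.0% of the siNEG mean of 8771 ± 124 CPM (SD, n = 3), so the groups were separated by far more than their spread. Falls differed between genes, from a log2 fold change of -2.70 for SPC24 to one of -0.39 for TOP2A, with standard errors of 0.10 and 0.05, so the genes did not share a single fold change.

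**Figure D1:**
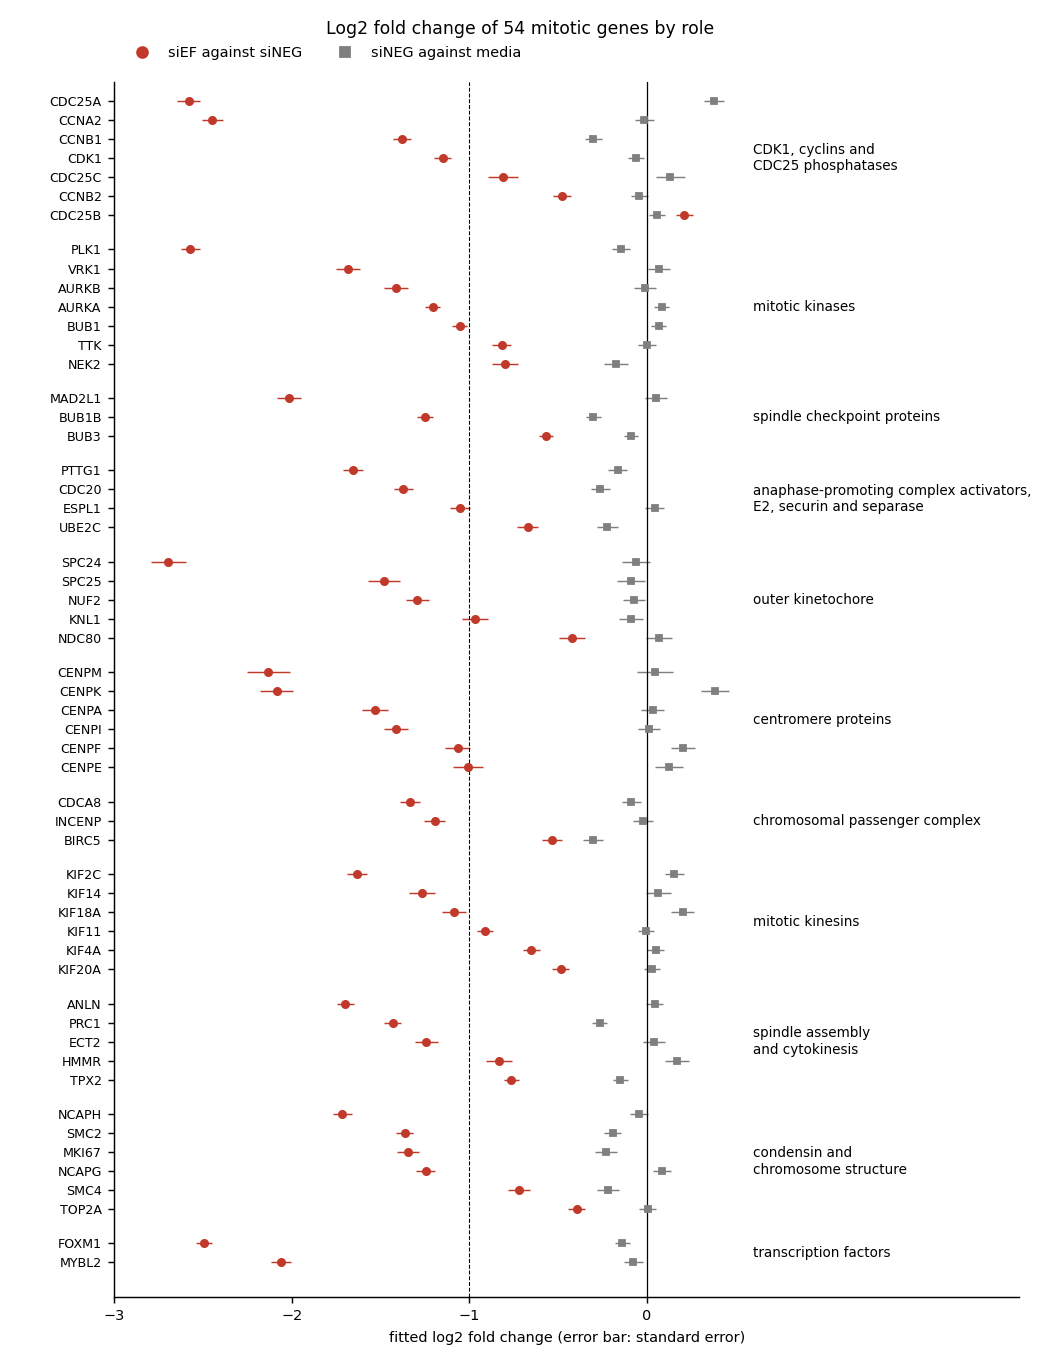
Fitted log2 fold change (x axis) of the 54 genes, listed by role (y axis), for siEF against siNEG (red circles) and siNEG against media (grey squares), with standard errors as bars and a dashed line at the cut-off of -1. Red circles lie left of 0 for 53 genes and right of it for CDC25B, and the grey squares lie between -0.30 and 0.39.

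Promoter sequence was examined because these genes fell together. RefSeq windows on GRCh38.p14 were matched by symbol for 45 of the 55 listed genes, KIF23 included (57 windows, 8 genes with more than 1), and the 250 bases upstream of the start were searched on both strands. Either CHR letter string, TTTGAA or TTTAAA, was present in 32 of the 57 windows (56.1%) and in 21.9% of the 35116 windows of all genes. CCAAT was present in 39 windows (68.4%, against 32.0% of all windows) and at 2 or more places in 22 (38.6%, against 9.5%). The E2F-type strings TTTGGCGC, TTTCCCGC and TTCCCGCC, of which the last overlaps the one before it, occurred in 4 windows (7.0%, against 3.9%), and the ETS-type string GGAAGT occurred in 12 (21.1%, against 19.5%). By gene, 29 of the 45 had a CHR string, with a median log2 fold change of -1.19 that ranged from -2.57 to -0.39. The 16 genes without one had a median of -1.52 and ranged from -2.70 to 0.21. The difference between these medians was not tested. The split rests on exact matches to either string anywhere in the 250 bases, and other spellings of the element were not searched. The other 10 listed genes, among them FOXM1, AURKA, BIRC5 and CENPM, had no window.

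The upstream bases of the 3 genes with the largest fall among those with a CHR string, and of the gene that rose, are shown from 250 bases before the start up to the start. Searched strings on either strand are in capitals, and the window shown for PTTG1 is the one farther upstream of its 2, and for CDC25B the first listed of its 4.
PLK1 (chr16:23678639-23678888, plus strand): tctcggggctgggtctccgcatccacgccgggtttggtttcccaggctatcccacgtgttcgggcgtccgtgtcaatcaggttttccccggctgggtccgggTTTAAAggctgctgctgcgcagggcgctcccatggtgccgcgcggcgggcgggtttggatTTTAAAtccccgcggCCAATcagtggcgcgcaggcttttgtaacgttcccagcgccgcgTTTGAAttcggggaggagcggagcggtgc
ANLN (chr7:36389612-36389861, plus strand): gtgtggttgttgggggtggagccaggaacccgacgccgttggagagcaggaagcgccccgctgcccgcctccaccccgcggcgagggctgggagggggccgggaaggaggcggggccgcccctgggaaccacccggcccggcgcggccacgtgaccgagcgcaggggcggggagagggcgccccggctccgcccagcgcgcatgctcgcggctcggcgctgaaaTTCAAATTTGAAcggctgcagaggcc
PTTG1 (chr5:160421605-160421854, plus strand): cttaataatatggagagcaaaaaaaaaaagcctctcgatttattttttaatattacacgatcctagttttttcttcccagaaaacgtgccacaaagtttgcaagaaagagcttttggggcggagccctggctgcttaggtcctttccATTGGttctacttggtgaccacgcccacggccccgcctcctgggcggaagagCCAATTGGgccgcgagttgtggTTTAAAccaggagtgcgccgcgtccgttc
CDC25B (chr20:3795539-3795788, plus strand): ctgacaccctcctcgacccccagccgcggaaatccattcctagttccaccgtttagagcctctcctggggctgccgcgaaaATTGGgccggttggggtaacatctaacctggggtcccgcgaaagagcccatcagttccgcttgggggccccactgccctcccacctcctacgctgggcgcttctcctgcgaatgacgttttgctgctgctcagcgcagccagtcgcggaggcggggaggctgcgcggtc
PLK1 held TTTGAA 29 bases upstream of the start and CCAAT 73 bases upstream, with TTTAAA at 148 and 88. ANLN held adjacent matches to TTTGAA on opposite strands at 26 and 20 bases and no CCAAT. In PTTG1, TTTAAA lay 29 bases upstream and CCAAT matches lay at 103, 51 and 48. The CDC25B window held CCAAT 169 bases upstream, and none of the 4 CDC25B windows held a CHR string. A match gives the letters only and not a bound site.

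Cyclin-dependent kinase 1, its cyclins and the CDC25 phosphatases that activate it comprised 7 genes, of which 4 were called lower, 2 more were lower on adjusted P alone and CDC25B was higher. CDK1 (ENSG00000170312.15, chromosome 10, 60778331 to 60794852) measured 79.7, 76.3 and 74.1 CPM in the siEF replicates, compared with 178, 172 and 160.2 CPM in siNEG and 178, 175 and 178 CPM in media. CDK1, the catalytic subunit that drives entry into mitosis, kept 45.1% of its siNEG level, a log2 fold change of -1.15 (SE 0.05, edgeR adjusted P = 2.19e-12), and media lay with siNEG. CCNB1 (ENSG00000134057.15, chromosome 5, 69167135 to 69178245) stood at 289, 274 and 267 CPM in the siNEG replicates and 333, 348 and 341 CPM in the media replicates, and at 104, 114 and 102 CPM in siEF. This main mitotic cyclin retained 38.5% of its siNEG level, a log2 fold change of -1.38 (SE 0.05, edgeR adjusted P = 2.61e-13), and its siNEG libraries were in turn all below the media libraries.

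The cyclins did not fall alike. CCNA2 (ENSG00000145386.10, chromosome 4, 121816444 to 121823883) was at 22.1, 25.9 and 22.5 CPM in siEF replicates 1, 2 and 3, at 131, 125 and 127 CPM in the siNEG replicates and at 126, 127 and 133 CPM in the media replicates. Cyclin A2, which acts in S phase and until early mitosis, kept only 18.3% of the siNEG level, with a log2 fold change of -2.45 (SE 0.06, edgeR adjusted P = 3.03e-15). CCNB2 (ENSG00000157456.8, chromosome 15, 59105126 to 59125045) measured 59.1, 60.7 and 61.3 CPM in the siEF replicates, compared with 88.05, 81.4 and 82.5 CPM in siNEG and 85.5, 86.01 and 87.7 CPM in media. Cyclin B2, the Golgi-associated B-type cyclin, kept 71.9%, with a log2 fold change of -0.48 (SE 0.05, edgeR adjusted P = 1.93e-07).

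The 3 CDC25 phosphatases differed in size and direction of change. CDC25A (ENSG00000164045.11, chromosome 3, 48157146 to 48188417) stood at 79.1, 86.6 and 82.9 CPM in the siNEG replicates and 66.5, 62.9 and 61.5 CPM in the media replicates, and at 14.3, 13.7 and 13.6 CPM in siEF. CDC25A, which acts on CDK2 as well as CDK1 and is needed from the start of S phase, had the second largest fall of the set, a log2 fold change of -2.58 (SE 0.06, edgeR adjusted P = 2.92e-15), and was the one phosphatase that passed as higher in siNEG than in media on adjusted P. CDC25C (ENSG00000158402.20, chromosome 5, 138285269 to 138338355) was at 14.2, 18.2 and 14.5 CPM in siEF replicates 1, 2 and 3, at 26.8, 28.2 and 26.4 CPM in the siNEG replicates and at 26.1, 24.1 and 23.96 CPM in the media replicates. CDC25C, the phosphatase of mitotic entry, fell by less, with a log2 fold change of -0.81 (SE 0.09, edgeR adjusted P = 2.41e-07), and siEF replicate 2 was its highest siEF library. CDC25B (ENSG00000101224.17, chromosome 20, 3786772 to 3806121) measured 233, 243 and 233 CPM in the siEF replicates, compared with 198, 202 and 211 CPM in siNEG and 207, 194 and 186 CPM in media. CDC25B, which starts CDK1 activation at the centrosomes, was higher in siEF than in every library of either control, with a log2 fold change of 0.21 (SE 0.05, edgeR adjusted P = 0.000651). Its rise was small, and without siNEG replicate 1 its adjusted P no longer passed 0.01.

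All 7 mitotic kinases were lower in siEF, 5 of them past both cut-offs. PLK1 (ENSG00000166851.15, chromosome 16, 23677656 to 23690367) stood at 224, 221 and 219.7 CPM in the siNEG replicates and 256, 244 and 235 CPM in the media replicates, and at 37.4, 40.1 and 34.8 CPM in siEF. Polo-like kinase 1, which acts from entry to cytokinesis and whose upstream bases are shown above, kept 16.8% of its siNEG level (log2 fold change -2.57, SE 0.05, edgeR adjusted P = 5.40e-16), and its highest siEF library was far below its lowest control library. AURKA (ENSG00000087586.17, chromosome 20, 56369389 to 56392337) was at 69.99, 69.99 and 67.4 CPM in siEF replicates 1, 2 and 3, at 159, 161 and 159 CPM in the siNEG replicates and at 152, 149 and 149.7 CPM in the media replicates. AURKB (ENSG00000178999.13, chromosome 17, 8204733 to 8210600) measured 31.4, 35.02 and 33.8 CPM in the siEF replicates, compared with 94.6, 85.6 and 85.97 CPM in siNEG and 96.9, 86.6 and 84.4 CPM in media. Aurora A, the kinase of centrosomes and spindle poles, had a log2 fold change of -1.21 (SE 0.04, edgeR adjusted P = 1.68e-13). Aurora B, the catalytic subunit of the chromosomal passenger complex, had one of -1.41 (SE 0.07, edgeR adjusted P = 9.33e-12).

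BUB1 (ENSG00000169679.15, chromosome 2, 110637528 to 110678063) stood at 189, 189 and 183 CPM in the siNEG replicates and 176, 176 and 184 CPM in the media replicates, and at 91.7, 90.8 and 87.9 CPM in siEF. BUB1, a kinetochore kinase of the spindle checkpoint, lay just inside the fold cut-off (log2 fold change -1.05, SE 0.04, edgeR adjusted P = 1.22e-12), with an SD of 1.98 CPM among its siEF libraries (n = 3). VRK1, a chromatin kinase that phosphorylates histone H3 and BAF, fell from 62.8 ± 2.07 CPM (SD, n = 3) to 19.6 ± 1.69 CPM (SD, n = 3), a log2 fold change of -1.68. TTK, the kinase that starts checkpoint signalling (also MPS1), had a log2 fold change of -0.82 and NEK2, the kinase that splits centrosomes, had one of -0.80, both lower on adjusted P alone.

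The 3 spindle checkpoint proteins listed apart from the kinases were all lower and covered a wide range. MAD2L1, the protein that sequesters CDC20, fell from 109 ± 7.33 CPM (SD, n = 3) to 26.9 ± 0.976 CPM (SD, n = 3), a log2 fold change of -2.01 (SE 0.07, edgeR adjusted P = 1.52e-13). BUB1B (BUBR1), its partner in the checkpoint complex, fell from 171 ± 2.03 CPM (SD, n = 3) to 71.8 ± 2.05 CPM (SD, n = 3), a log2 fold change of -1.25. BUB3 (ENSG00000154473.18, chromosome 10, 123154402 to 123170467) was at 112, 116 and 113 CPM in siEF replicates 1, 2 and 3, at 167, 169 and 169 CPM in the siNEG replicates and at 176, 180.1 and 182 CPM in the media replicates. BUB3, the scaffold that brings BUB1 and BUB1B to kinetochores, fell least (log2 fold change -0.57, SE 0.04, edgeR adjusted P = 1.62e-09) and was lower on adjusted P alone, although its libraries were tightly grouped.

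Around the anaphase-promoting complex, 3 of 4 genes were called lower. CDC20 (ENSG00000117399.14, chromosome 1, 43358981 to 43363203) measured 108, 117 and 105 CPM in the siEF replicates, compared with 285, 285 and 281 CPM in siNEG and 362, 342 and 316 CPM in media. CDC20, the mitotic activator of the complex, had a log2 fold change of -1.37 (SE 0.05, edgeR adjusted P = 7.62e-13) and its siNEG libraries lay below those of media. PTTG1 (ENSG00000164611.13, chromosome 5, 160421855 to 160428739) stood at 89.4, 82.9 and 84.5 CPM in the siNEG replicates and 102, 92.7 and 93.2 CPM in the media replicates, and at 26.95, 27.7 and 27.01 CPM in siEF. Securin (PTTG1), the inhibitor of separase, kept 31.8% of its siNEG level (log2 fold change -1.65, SE 0.06, edgeR adjusted P = 1.75e-13). Separase itself (ESPL1), the protease that cuts cohesin, had a log2 fold change of -1.05, and UBE2C, the ubiquitin-conjugating enzyme that works with the complex, had one of -0.67 and did not reach the fold cut-off. The fall of securin was larger than that of the protease it inhibits, and the difference was not tested.

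In the outer kinetochore, which grips microtubules, 3 of 5 genes were called lower and the 4 subunits of the NDC80 complex fell by different amounts. SPC24 (ENSG00000161888.11, chromosome 19, 11131520 to 11155807) was at 6.43, 6.02 and 7.33 CPM in siEF replicates 1, 2 and 3, at 41.3, 40.8 and 47.2 CPM in the siNEG replicates and at 49.7, 41.9 and 43.2 CPM in the media replicates. SPC24, a subunit at the centromere end of the complex, had the largest fall of the set, a log2 fold change of -2.70 (SE 0.10, edgeR adjusted P = 2.63e-13). NDC80 (ENSG00000080986.13, chromosome 18, 2571557 to 2616635) measured 33.4, 37.6 and 31.7 CPM in the siEF replicates, compared with 44.4, 45.4 and 47.1 CPM in siNEG and 39.7, 43.8 and 46.9 CPM in media. NDC80 itself, the subunit that binds microtubules, kept 74.8% of the siNEG level (log2 fold change -0.42, SE 0.07, edgeR adjusted P = 7.84e-05), and its highest siEF library was close to its lowest media library. SPC25, the partner of SPC24, had a log2 fold change of -1.48 and NUF2, the partner of NDC80, had one of -1.29. KNL1, the scaffold that recruits BUB1 and BUB3, had one of -0.97, just short of the fold cut-off.

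All 6 centromere proteins were called lower against siNEG, and 4 of them against media, where CENPE and CENPF had log2 fold changes of -0.88 and -0.86. CENPA (ENSG00000115163.15, chromosome 2, 26764289 to 26801067) stood at 33.6, 33.3 and 29.8 CPM in the siNEG replicates and 31.3, 30.4 and 32.8 CPM in the media replicates, and at 10.8, 11.6 and 11.2 CPM in siEF. CENPA, the histone H3 variant that marks centromeres, had a log2 fold change of -1.53 (SE 0.07, edgeR adjusted P = 8.50e-12). CENPM fell from 19.02 ± 0.799 CPM (SD, n = 3) to 4.39 ± 0.693 CPM (SD, n = 3) and CENPK from 28.7 ± 2.81 CPM (SD, n = 3) to 6.73 ± 0.406 CPM (SD, n = 3), log2 fold changes of -2.13 and -2.09, and CENPI had one of -1.41. These 3 belong to the constitutive network of proteins on CENPA chromatin. CENPF and CENPE, large microtubule-binding proteins that join the kinetochore in mitosis, had the smallest falls of the group, with log2 fold changes of -1.07 and -1.01.

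Of the chromosomal passenger complex, which corrects faulty attachments through Aurora B, CDCA8 (borealin) and INCENP were called lower, with log2 fold changes of -1.33 and -1.19. BIRC5 (ENSG00000089685.15, chromosome 17, 78214186 to 78225636) was at 87.7, 91.1 and 81.8 CPM in siEF replicates 1, 2 and 3, at 128, 125 and 123 CPM in the siNEG replicates and at 168, 150.4 and 146 CPM in the media replicates. Survivin (BIRC5), the subunit that docks the complex on chromatin, had a smaller log2 fold change of -0.53 (SE 0.06, edgeR adjusted P = 2.45e-07), and its siNEG libraries were already below its media libraries.

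The 6 mitotic kinesins found by symbol were all lower, 3 of them past both cut-offs. KIF11 (ENSG00000138160.6, chromosome 10, 92574105 to 92655395) measured 108, 102 and 104 CPM in the siEF replicates, compared with 189, 206 and 196 CPM in siNEG and 193, 201 and 198 CPM in media. KIF11 (Eg5), the motor that pushes spindle poles apart, kept 53.3% of its siNEG level (log2 fold change -0.91, SE 0.05, edgeR adjusted P = 1.62e-11), just short of the fold cut-off. KIF20A (ENSG00000112984.12, chromosome 5, 138178719 to 138187723) stood at 120.02, 118 and 121 CPM in the siNEG replicates and 116, 116 and 119 CPM in the media replicates, and at 85.7, 88.9 and 81.8 CPM in siEF. KIF20A (MKLP2), a motor of the central spindle, fell least of the kinesins (log2 fold change -0.49, SE 0.05, edgeR adjusted P = 5.23e-08). KIF2C (MCAK), which depolymerises microtubules at centromeres, fell from 178 ± 6.89 CPM (SD, n = 3) to 57.7 ± 3.999 CPM (SD, n = 3), a log2 fold change of -1.63. KIF14, a cytokinesis motor, had a log2 fold change of -1.27, KIF18A, which limits chromosome movement, had one of -1.09, and the chromokinesin KIF4A had one of -0.65.

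KIF23 (MKLP1), the central spindle motor matched by identifier, measured 82.5, 74.9 and 76.2 CPM in siEF, 156, 155 and 156 CPM in siNEG and 143, 147 and 147 CPM in media. Its log2 fold change was -1.0 (SE 0.05, edgeR adjusted P = 5.79e-12), which missed the fold cut-off in a later decimal.

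Of the 5 spindle assembly and cytokinesis genes, 3 were called lower. ANLN (anillin), which organises the contractile ring and whose upstream bases are shown above, fell from 249 ± 6.99 CPM (SD, n = 3) to 76.9 ± 1.43 CPM (SD, n = 3), a log2 fold change of -1.70. PRC1, which bundles antiparallel microtubules of the midzone, had a log2 fold change of -1.43, and ECT2, the exchange factor that activates RHOA at the cleavage site, had one of -1.24. TPX2, the activator of Aurora A on spindle microtubules, had a log2 fold change of -0.76 and HMMR, a spindle pole protein and hyaluronan receptor, had one of -0.83, both lower on adjusted P alone.

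Among 6 condensin and chromosome structure genes, 4 were called lower. MKI67 (ENSG00000148773.14, chromosome 10, 128096659 to 128126423) was at 211, 205 and 194 CPM in siEF replicates 1, 2 and 3, at 481, 540.3 and 528 CPM in the siNEG replicates and at 542, 644 and 627 CPM in the media replicates. Ki-67 (MKI67), the coat of mitotic chromosomes and a common marker of cycling cells, had a log2 fold change of -1.34 (SE 0.06, edgeR adjusted P = 8.68e-12). TOP2A (ENSG00000131747.15, chromosome 17, 40388525 to 40417896) measured 665, 664 and 658 CPM in the siEF replicates, compared with 863, 896 and 852 CPM in siNEG and 804, 908 and 889 CPM in media. Topoisomerase II alpha (TOP2A), which untangles sister chromatids, kept 76.1% of its siNEG level (log2 fold change -0.39, SE 0.05, edgeR adjusted P = 1.26e-06), the smallest fall of the 53 genes that were lower. Of the condensin subunits, NCAPH had a log2 fold change of -1.71, SMC2 one of -1.36, NCAPG one of -1.25 and SMC4 one of -0.72. The 2 ATPase subunits SMC2 and SMC4 pair with each other, and only SMC2 passed the fold cut-off.

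Both transcription factors of the program were called lower. FOXM1 (ENSG00000111206.12, chromosome 12, 2857680 to 2877174) stood at 199, 196 and 187 CPM in the siNEG replicates and 218, 211 and 212 CPM in the media replicates, and at 33.6, 34.6 and 35.03 CPM in siEF. FOXM1, a forkhead activator of late cell cycle genes, kept 17.7% of its siNEG level (log2 fold change -2.50, SE 0.05, edgeR adjusted P = 1.41e-16). MYBL2 (ENSG00000101057.16, chromosome 20, 43667019 to 43716495) was at 68.3, 69.5 and 63.7 CPM in siEF replicates 1, 2 and 3, at 279, 283 and 278 CPM in the siNEG replicates and at 323, 278 and 283 CPM in the media replicates. MYBL2 (B-MYB), which binds the MuvB complex at the same genes, kept 23.98% (log2 fold change -2.06, SE 0.06, edgeR adjusted P = 1.34e-14). Ordered by log2 fold change from the largest fall, FOXM1 had rank 4 and MYBL2 rank 8.

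**Figure D2:**
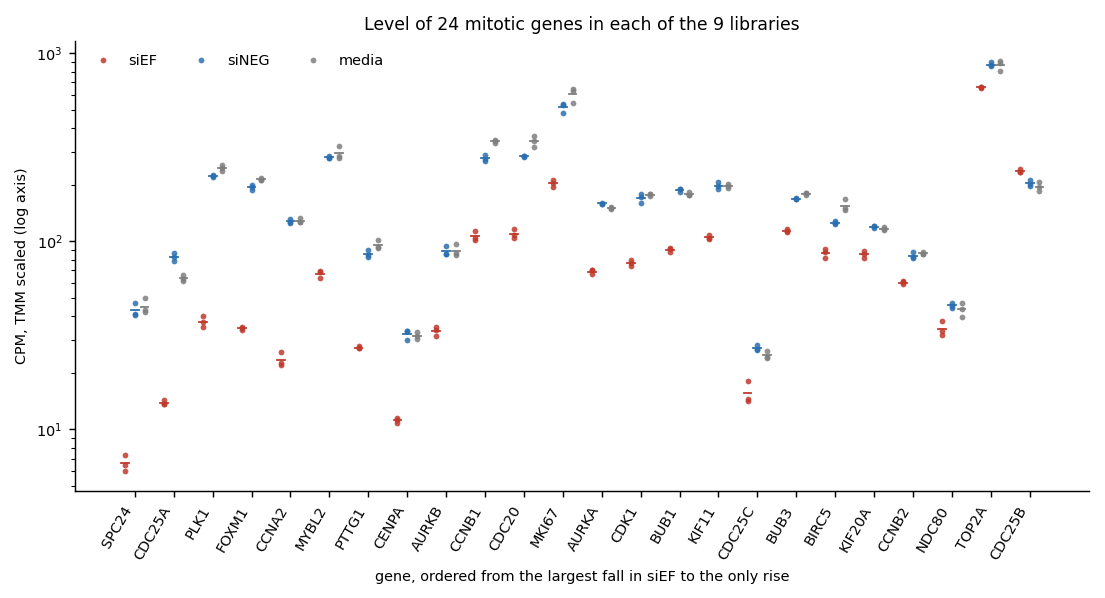
CPM on a log axis (y) of 24 genes (x), with a point for each library and a line at the group mean, for siEF (red), siNEG (blue) and media (grey). For 23 genes the 3 siEF points lie below all siNEG points, and for CDC25B at the right they lie above. Levels are not divided by gene length, so heights compare libraries within a gene.

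Unequal change between related genes was tested on 8 pairs, of which only some are subunits of 1 complex. The measure was the log2 ratio of their CPM in the same library, which does not depend on depth or scaling. With 3 libraries against 3 the smallest two-sided P of an exact permutation test is 0.1, so none of the pairs could reach 0.05, and the pairs were chosen with earlier results known. The log2 ratio of SPC24 to NDC80 was -2.38, -2.64 and -2.11 in siEF replicates 1, 2 and 3 and -0.10, -0.16 and 0.00 in siNEG, a mean difference of -2.29 (exact permutation P = 0.1). The ratio of CDC25A to CDC25B was -4.03, -4.15 and -4.10 in siEF and -1.32, -1.22 and -1.35 in siNEG, a difference of -2.80. In both pairs the groups were far apart, and media lay with siNEG on the side away from siEF.

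CCNB1 to CCNB2 differed by -0.90, CDC25C to CDC25B by -1.02, BUB1B to BUB3 by -0.68 and FOXM1 to MYBL2 by -0.44 (siEF minus siNEG), without overlap and at the same smallest P. AURKB to AURKA differed by -0.20, with siEF values of -1.16, -0.999 and -0.996 next to siNEG values of -0.75, -0.91 and -0.89, which nearly touch. SPC25 to NUF2 was the only overlapping pair, with -1.11, -1.65 and -1.45 in siEF and -1.32, -1.26 and -1.02 in siNEG (exact permutation P = 0.4). After adjustment over the 8 pairs by the Benjamini-Hochberg method, the permutation P was 0.114 for the 7 pairs without overlap and 0.4 for SPC25 to NUF2.

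**Figure D3:**
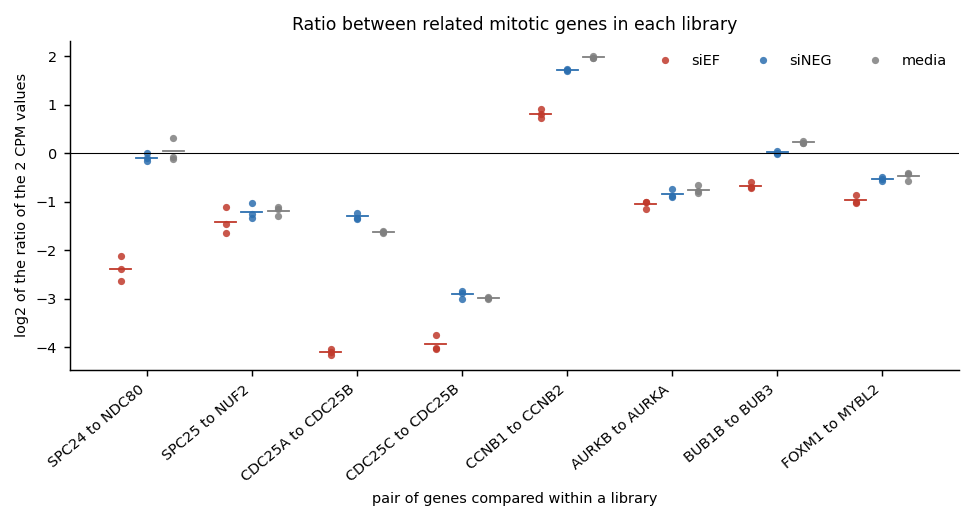
Log2 ratio of the CPM of 2 genes (y) for 8 pairs (x), with a point for each library and a line at the group mean (siEF red, siNEG blue, media grey). The siEF points stand below the siNEG points in 7 pairs, most for CDC25A to CDC25B and SPC24 to NDC80, and overlap them for SPC25 to NUF2.

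Levels were compared between genes per kilobase of exon, using the union of annotated exons. In siNEG, CDC20 was highest at 141 ± 0.925 CPM per kb (SD, n = 3), followed by TOP2A at 137 ± 3.67, CCNB1 at 114 ± 4.65, MYBL2 at 101 ± 0.882 and UBE2C at 98.1 ± 1.40. The means of CDC20 and TOP2A differed by less than the sum of their SDs. In siEF, TOP2A led at 104 ± 0.585 CPM per kb, followed by UBE2C at 61.8 ± 4.65 and CDC25B at 60.5 ± 1.57, which were within their spread of each other, and MYBL2 stood at 24.2 ± 1.10. The lowest per kb in both groups was VRK1, at 1.98 ± 0.0653 in siNEG and 0.620 ± 0.0535 in siEF, over an annotated exon union of 31679 bases, the longest of the set, and before division by length its 62.8 CPM in siNEG lay above those of CENPM and CDC25C. The order of the genes highest per kb thus differed between the groups, and this order depends on the annotated exon lengths. Before division by length, TOP2A was highest in both groups, at 870 CPM in siNEG and 662 CPM in siEF.

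Other genes of mitosis, 98 in 7 lists, were counted beside the set. Of the 97 tested, 46 were called lower and 2 higher in siEF against siNEG, where 11.7% and 17.1% of all genes tested were. On adjusted P alone 76 were lower, 9 were higher and 12 did not pass, with backgrounds of 31.7% lower and 33.6% higher. The median log2 fold change was -0.92. By list, 14 of 25 kinetochore and centromere genes, 10 of 18 spindle, kinesin and centrosome genes, 6 of 11 CDK1 regulators and kinases, and 7 of 9 condensin and chromosome genes were called lower. The counts were 3 of 20 for subunits and inhibitors of the anaphase-promoting complex, 3 of 7 for cytokinesis and 3 of 7 for the MuvB core and its partners, with medians of -0.37, -0.31 and -0.57. The 3 of 20 lay near the share of 11.7% called lower among all genes tested. LIN52, a MuvB core subunit, fell from 15.4 ± 1.03 to 2.16 ± 0.305 CPM (SD, n = 3), a log2 fold change of -2.81. The spindle protein NUSAP1 (-2.42), the kinetochore protein ZWINT (-2.34) and the ubiquitin-conjugating enzyme UBE2S (-2.30) had the next largest log2 fold changes. The 2 genes called higher, named after their values were seen, were NUMA1, a spindle pole protein, and KIF13A, a kinesin of membrane traffic and the midbody, with log2 fold changes of 1.07 and 1.51.

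DNA replication and nucleotide supply, the program of S phase, was read from 38 genes. Of these, 34 were called lower and 0 higher (edgeR), where 11.7% and 17.1% of all genes tested were. On adjusted P alone 38 were lower, with a background of 31.7%, and the median log2 fold change was -1.74. At an unadjusted P under 0.05, and with DESeq2, 0 were higher. The difference between these lists was not tested.

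**Figure D4:**
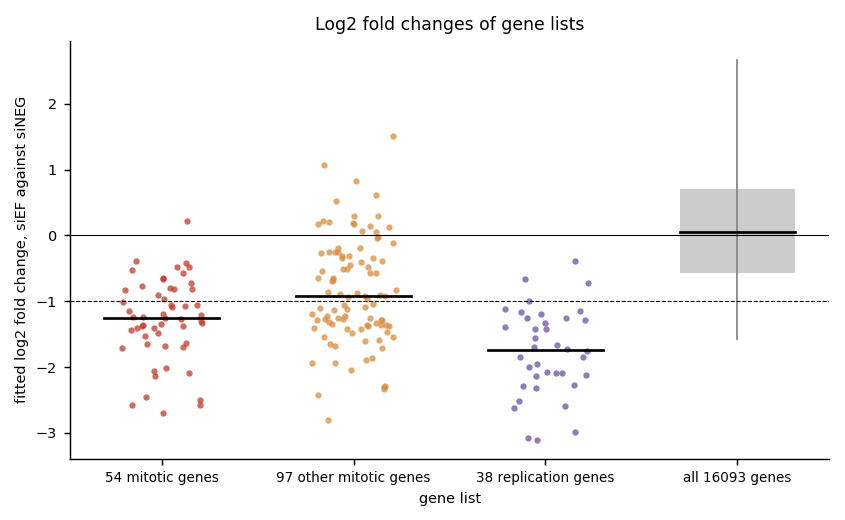
Fitted log2 fold change of siEF against siNEG (y) for the 54 genes, 97 other mitotic genes and 38 replication genes (points, horizontally jittered, with a bar at the median), and for all genes tested (box from the 25th to the 75th percentile, whiskers from the 5th to the 95th, bar at the median). The medians are -1.25, -0.92, -1.74 and 0.05.

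The comparison of siNEG with media addressed transfection with a nonspecific siRNA. Of the 54 genes, 6 were lower in siNEG at an adjusted P under 0.01 (CCNB1, PRC1, CDC20, BUB1B, BIRC5 and SMC2) and 2 were higher (CDC25A and CENPK), with backgrounds of 5.96% and 3.83% of all genes. These shifts were small, with log2 fold changes of -0.30 for CCNB1, -0.27 for PRC1, -0.26 for CDC20, -0.30 for BUB1B, -0.30 for BIRC5 and -0.19 for SMC2. CDC25A and CENPK had log2 fold changes of 0.38 and 0.39. The median over the 54 genes was -0.0059, compared with -0.0012 over all genes. The other 46 genes did not pass, which does not show that they were equal. SMC2 lost its call in 11 of 18 alternatives, CDC20 in 4 and CENPK in 3, and the other 5 genes kept theirs in all 18.

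**Figure D5:**
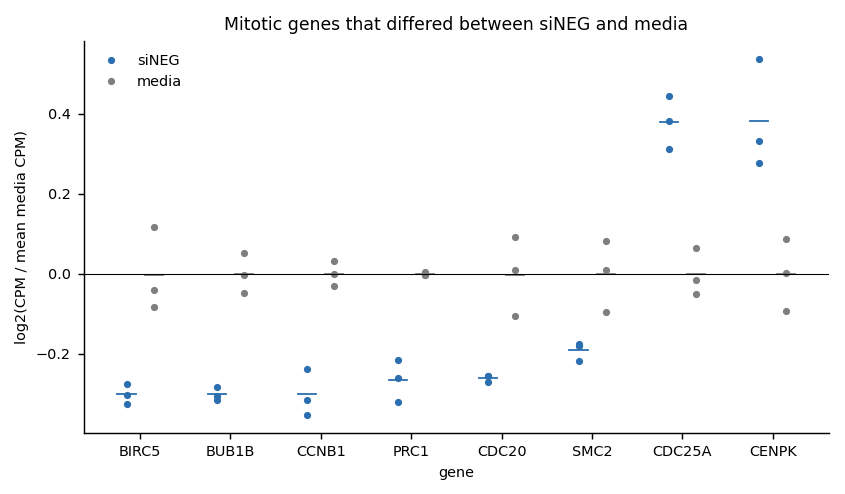
Log2 of the CPM over the mean media CPM (y) for the 8 genes that passed between siNEG and media (x), with a point for each siNEG (blue) and media (grey) library and a line at the mean. The siNEG points lie below all media points for 6 genes and above them for CDC25A and CENPK.

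Media is a second control, and its comparison with siEF uses the same siEF libraries, so its values are set beside those against siNEG and are not independent of them. Against media, 34 of the 54 genes were lower past both cut-offs, where 12.5% of all genes were. On adjusted P alone, 53 were lower and CDC25B was higher, with backgrounds of 32.3% and 33.6%. The median log2 fold change was -1.21 against media and -1.25 against siNEG. For genes that siNEG itself shifted, the choice of control moved the value. BIRC5 had a log2 fold change of -0.83 against media and -0.53 against siNEG, and CCNB1 had -1.68 and -1.38. CDC25A went the other way, with -2.20 against media and -2.58 against siNEG. PLK1 had -2.72 and -2.57, and TOP2A had -0.39 and -0.39.

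The fold cut-off divided genes of nearly equal change. CENPE (-1.01), BUB1 (-1.05), ESPL1 (-1.05) and CENPF (-1.07) lay just inside it, and KNL1 (-0.97) and KIF11 (-0.91) just outside. CENPE was called in 14 of 20 alternatives, CENPF in 17 and KNL1 in 5. These 20 leave out the test against the fold cut-off itself (glmTreat), which called 32 of the 54 genes lower, compared with 37 in the main fit. The values of SPC24, CDC25A, PLK1, FOXM1 and CCNA2 stayed below -2 in each of the 20. CDC25B stayed above 0 in all 20, between 0.16 and 0.30.

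Several genes share genomic bases with a neighbour, and the strand setting of the counting was not given in the sources used here, so reads in shared bases could be assigned to either gene. CDC25C overlaps FAM53C (17438 counts next to 6058, log2 fold change 0.50), and CENPA overlaps SLC35F6 on the same strand (13812 next to 6838, log2 fold change 0.08). In both cases the log2 fold change of the neighbour was above 0 and that of the mitotic gene below it. The same held for NUF2 with RGS5 (12756 counts next to 16347, log2 fold change 0.57) and KIF4A with PDZD11 (9096 next to 21049, log2 fold change 0.30). FOXM1, with 40810 counts, overlaps ITFG2 (4639 counts, log2 fold change 0.50) and RHNO1 (10876 counts, log2 fold change -0.68). The overlaps named here are examples. CCNA2 overlaps EXOSC9, with 12008 counts and a log2 fold change of -1.34. KIF20A overlaps CDC23 (21454 counts, log2 fold change -0.39) and BRD8 (17357 counts, log2 fold change 0.70). The pseudogene CDC20P1 held 1542 counts, with 54.2 to 67.0 in siEF and 205 to 239 in siNEG, so a small part of the reads of CDC20 may have been split to it.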

How the data were processed

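RNA from TC32 cells was sequenced in 3 groups (siEF, siNEG and media) of 3 libraries each, with group and replicate number read from the labels of each sample. According to the methods, reads were mapped to hg38 with STAR and gene expression was estimated with RSEM, and the submitters' processing notes list cutadapt 2.10, FastQC and DESeq2 1.32.0. The authors deposited RSEM expected counts per gene, neither scaled for depth nor pooled. The annotation release and the strand setting were not given in the sources used here. All 9 value columns were used. Positions and exon lengths came from GENCODE release 44 on GRCh38, where 60306 of the 60603 identifiers (99.5%) were found, and promoter windows from RefSeq on GRCh38.p14.

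Expected counts were rounded, filtered with filterByExpr (16093 genes kept), scaled by TMM (factors 0.970 to 1.03) and fitted in edgeR 4.0.16 (R 4.3.3) for its quasi-likelihood test, with a mean for each group and a spread shared by all 9 libraries. Adjustment was by Benjamini-Hochberg over all genes tested. Calls required an adjusted P under 0.01 and an absolute log2 fold change over 1, the cut-offs of the methods. Standard errors were derived from the log2 fold change and its F statistic. Pairs of genes were compared with exact two-sided permutation tests (scipy 1.17.1, Python 3.11.15). No 2 libraries of a group agreed within sampling noise (chi-square per degree of freedom 3.57 to 23.2, genes of 20 or more counts). On simulated data for siEF against siNEG, with 197 changed genes among 15738, the procedure called 179 of these and 1 unchanged gene.

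The genes and lists were chosen with earlier results of these data known. Each listed gene was named at least once, with values in every library for 20 fixed genes and for the 5 largest and 5 smallest log2 fold changes, and of the other mitotic genes the 4 with the largest called log2 fold changes were named. Alternatives were RLE and upper quartile scaling, DESeq2 1.42.0, a test against the fold cut-off (glmTreat), a filter of 1 count in total or of 10 counts in every library, a fit to the 6 libraries of a comparison, replicate number as a block, thinning to the smallest library, counts left unrounded, media or siNEG with media as the control, and leaving out each library. An overlap of 1 listed gene with a neighbouring gene is not reported here.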

Additional observations from a re-analysis of the deposited data

How the results depend on the processing

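The number of genes lower in siEF than siNEG past both cut-offs was 37 and lay between 32 (a test against the fold cut-off) and 38 (no low-count filter), and from 36 to 38 when single libraries were left out. The number called higher was 0 throughout. On adjusted P alone 53 were lower in each alternative. CDC25B was the 1 higher gene except without siNEG replicate 1, when 0 passed, so the range with a library left out was 0 to 1. The median log2 fold change, -1.25, was -1.26 with RLE scaling, -1.16 with upper quartile scaling, -1.29 with no low-count filter, -1.22 with at least 10 counts in every library, -1.21 with media as control, -1.23 with both controls pooled and -1.27 with DESeq2, and -1.28 to -1.25 with each library left out. None of these changed direction. Between siNEG and media, 6 genes were lower, 10 with DESeq2, 9 with no low-count filter and 4 to 8 with each library left out. The number higher was 2, 1 with libraries thinned, 3 with no low-count filter and 1 to 2 with each library left out. The median against media of -0.0059 ranged from -0.033 to 0.0093 with each library left out. With replicate number as a block (replicate block), the counts were 37 and 0 past both cut-offs and 53 and 1 on adjusted P alone. Same-numbered libraries correlated between -0.088 and 0.048 in their deviations from the group means, and others between -0.075 and 0.081. No shared deviation by replicate number was thus seen, which does not show whether same-numbered cultures were handled together. Of 480 values of the 24 genes with values in every library, 479 kept their direction and their side of the adjusted P threshold of 0.01. The fold cut-off was not part of this count, and BUB1 was called past both cut-offs in 18 of 20 alternatives. These 20 leave out the test against the fold cut-off, for which calls of single genes were not tallied.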
